A study of Drosophila melanogaster with 9 samples.

Results

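The 460 bins described here are stretches of 100 bp of the 42AB piRNA cluster whose small RNAs came mainly from the antisense strand in Drosophila melanogaster ovaries. They were chosen by their reads in 3 libraries. The reads of each strand were summed per bin and averaged over the libraries, and a bin was kept if the mean level of both strands was at least 10 reads per 1000000 miRNA reads (miRNA rpm) and sense reads made up at most 25% of it. Of the 2479 bins of the deposited 42AB sequence, 1845 held a read in any library and 1643 reached the level minimum. The 460 antisense bins are 28.0% of these 1643, beside 442 sense bins (at least 75% sense reads) and 741 bins read from both strands. A further 60 bins had a sense share of at most 25% but lay under the level minimum and were not kept. Strand share and level selected the bins, so both are given below as a description without a test. Sense means the forward strand of the deposited 42AB sequence, and positions are counted along that sequence, since no genome coordinates were used here.

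The libraries came from ovaries of flies kept at 25°C, with 1 library for each of 3 genotypes. All genotypes carried BX2, a cluster of P(lacW) transgenes repeated in tandem on the second chromosome. It can be inactive or active in producing piRNAs. The first library was BX2OFF with P(TARGET), in which BX2 is inactive for piRNA production. The second was BX2Θ with P(TARGET), in which BX2 produces piRNAs after exposure of the flies to heat in earlier generations. P(TARGET) is a lacZ reporter at another place on that chromosome. The third library, BX2*, produces BX2 piRNAs through maternal inheritance, lacks P(TARGET) and was first analysed in an earlier study. Genotype, reporter and library can therefore not be told apart in any comparison with BX2*, and no value has a replicate error. Intervals are 95% intervals for counting error only, and sequenced reads are not independent molecules.

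piRNAs are small RNAs of the germline that guide Piwi proteins to transposon transcripts. 42AB is the best known dual-strand piRNA cluster of the fly germline: it is transcribed in both directions, and its precursors are cut into piRNAs that carry the remains of many transposons. In the ping-pong cycle, piRNAs of opposite strands are made by reciprocal slicing and overlap by 10 nt at their 5′ ends, whereas phased processing by Zucchini cuts successive piRNAs from 1 precursor, one after the other.

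The cluster held 2075646 reads in BX2OFF, 2093549 in BX2Θ and 2499783 in BX2*, of which 92.8%, 93.5% and 94.1% were 23 to 29 nt long. Antisense reads made up 49.0%, 48.8% and 48.4% of them, so that the cluster as a whole was read about equally from both strands. The antisense bins held 674923, 679702 and 849571 of the reads, or 32.5%, 32.5% and 34.0%. They contained 58.9%, 59.3% and 64.0% of the antisense reads of the cluster and 7.15%, 6.89% and 5.87% of its sense reads. Within them, the sense share of all reads was 11.2% (95% Wilson interval 11.1–11.3) in BX2OFF, 10.9% (10.8–10.9) in BX2Θ and 8.92% (8.86–8.98) in BX2*. The tables of positions count 18 to 29 nt reads without a length per position, so the length of the reads in single bins was not analysed here.

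The level of the antisense bins differed widely. It ran from 10.9 to 6723 miRNA rpm, with a median of 168 and quartiles of 72.7 and 444. The median was 238 in the sense bins and 116 in the bins read from both strands. A level of at least 100 miRNA rpm was reached by 306 antisense bins and a level of at least 1000 by 46. These 46 highest bins, of 460, held 48.8% of its summed level, and the 5 highest bins held 12.6%. The median sense share was 12.3%, with quartiles of 6.44% and 18.5%. In 87 bins the sense share was at most 5%, in 94 it lay between 5% and 10%, and in 279 between 10% and 25%. In 7 bins no sense read was counted in any library.

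At the share threshold, bins 133200 (25.0%) and 21700 (24.96%) lay just inside, and bins 172100 (25.03%) and 168900 (25.05%) just outside. Each bin is named here by its first position. At the level threshold, bins 240800 and 16300 lay just inside with 10.9257 and 10.9437 miRNA rpm, and bins 1100 and 216400 just outside with 9.91 and 9.71.

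The antisense bins were spread over most of the sequence but were dense in a few stretches. In the stretch of 20 to 30 kb from the start, 38 of 90 bins at the level minimum were antisense, and these 38 held 28.9% of the antisense level of the set. From 30 to 40 kb, 36 of 78 bins were antisense, and from 40 to 50 kb 35 of 81, the latter with 12.8% of that level. The stretches of 20 to 30 kb and 40 to 50 kb and those of 170 to 180 kb and 190 to 200 kb together held 150 of the 460 bins and 58.8% of the antisense level. In the stretch of 140 to 150 kb, 21 of 41 bins were antisense and 0 were sense bins. From 80 to 90 kb none of 85 bins was antisense, while 70 were sense bins. From 70 to 80 kb there were 11 antisense and 53 sense bins among 91, and from 200 to 210 kb 13 antisense and 49 sense bins among 97. Between 90 and 100 kb, 2 of 41 bins were antisense, and no bin reached the level minimum between 110 and 120 kb. The reads are marked as uniquely matched, so reads that match at several places would be missing from these values. Their effect on place and level was not tested.

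**Figure D1:**
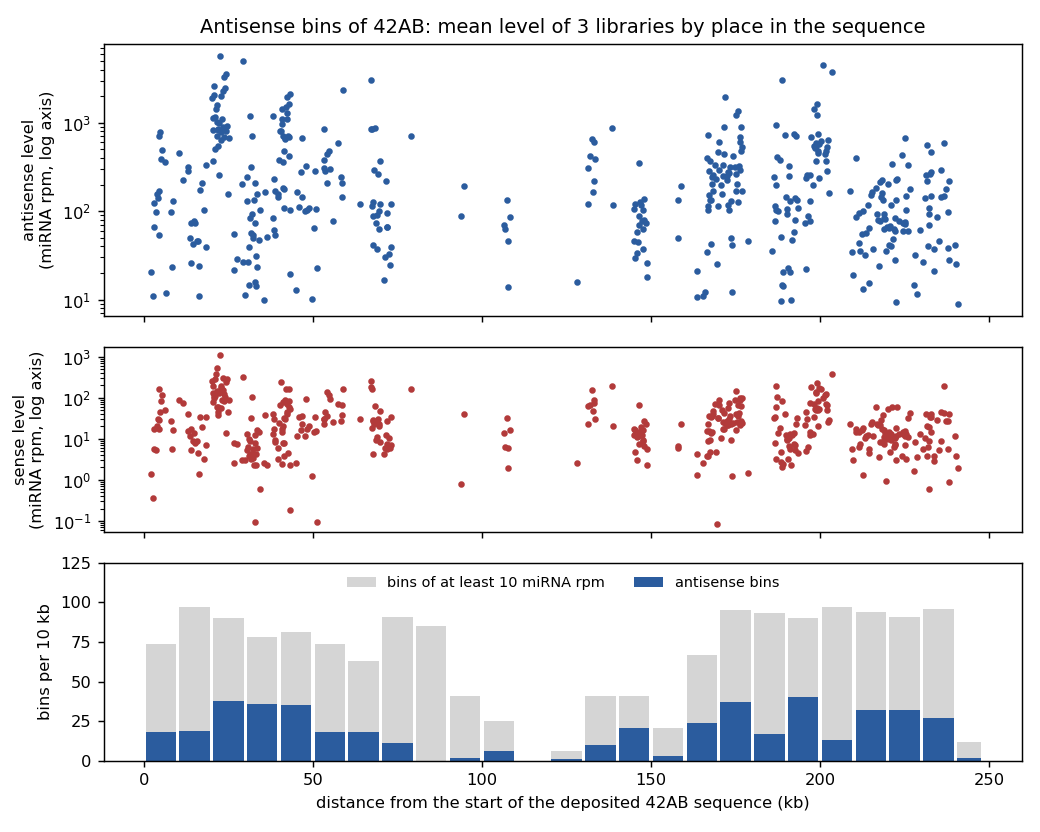
Mean antisense level (top) and sense level (middle) of each of the 460 antisense bins in miRNA rpm on log axes, and the number of bins per 10 kb (bottom), against the distance in kb from the start of the deposited 42AB sequence. The highest antisense levels lie near 20 to 30 kb and 200 kb, there is no antisense bin from 80 to 90 kb, and the 7 bins without a sense read are not drawn in the middle panel.

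Adjacent antisense bins formed runs, most of them short. The 460 bins fell into 266 runs, of which 164 were single bins, 57 held 2 bins, 24 held 3 and 21 held 4 or more. Runs of at least 2 bins contained 296 bins (64.3%), against 62.9% of the sense bins and 72.3% of those of both strands. The sense bins formed 240 runs with a longest run of 19 bins, and the bins of both strands 388 runs with a longest of 9. Of the bins directly beside an antisense bin, counted on both sides, 388 (42.2%) were antisense, 392 (42.6%) were read from both strands, 91 (9.89%) were sense bins and 49 (5.33%) lay under the level minimum. The share of neighbours from the same class was 45.7% for sense bins and 47.6% for bins of both strands. At the 532 ends of runs, the next bin was of both strands in 73.7%, a sense bin in 17.1% and under the level minimum in 9.21%. A switch from a mainly antisense to a mainly sense bin within 100 bp was thus present at 91 of 532 run ends. Neighbouring bins can share reads of 1 precursor and are not independent.

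The longest run covered 12 bins, from 40700 to 41899. Its level was 7399 miRNA rpm in BX2OFF, 6789 in BX2Θ and 10336 in BX2*, and its sense share was 8.36%, 8.75% and 4.07%. The run was highest in BX2*, at 1.40 times its level in BX2OFF (95% interval 1.38–1.42), and 10 of its 12 bins had at most 25% sense reads in every library. The length of the longest run depended on the choice of bins: it was 5 bins at a sense share of at most 10%, 19 at 33% and 6 without the most abundant position of each bin. It was flanked on both sides by bins read from both strands, with 51.2% and 59.6% sense reads. The next run, of 9 bins from 21400 to 22299, had levels of 8889, 10724 and 9421 miRNA rpm and sense shares of 19.6%, 12.0% and 13.5%. It was highest in BX2Θ, and 6 of its 9 bins stayed at or under 25% in every library.

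Of the runs of 6 bins, the one with the highest level lay from 42800 to 43399, near the longest run. Its level was 5388, 3819 and 6808 miRNA rpm in BX2OFF, BX2Θ and BX2*, or 1.78 times as high in BX2* as in BX2Θ. Its sense share was 10.1%, 7.74% and 3.34%, lowest in BX2*. The run from 199100 to 199699 had levels of 5444, 5627 and 4729 miRNA rpm, lowest in BX2*, with sense shares of 8.63%, 8.61% and 10.7%. The run from 176100 to 176699 had levels of 3430, 3086 and 4404 miRNA rpm, highest in BX2*, with sense shares of 10.7%, 10.2% and 7.55%. The order of the libraries was therefore not the same along the cluster.

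Within a bin, the antisense reads were unevenly divided over their 5′ positions. A bin had a median of 33.8 antisense 5′ positions (range 2.33 to 79, averaged over the libraries). Its most abundant position held a median of 35.4% of its antisense reads (quartiles 24.6% and 56.6%), and at least 50% in 137 bins. The same position was the most abundant in all 3 libraries in 299 bins (65.0%). On the sense strand of the sense bins the corresponding values were close, with a median of 37.7 positions, a share of 33.9% at the most abundant one, 130 bins at 50% or more and the same position in every library in 275 bins (62.2%).

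The 5 highest bins lay between 22500 and 203599. Bin 22500 had antisense levels of 5724 miRNA rpm in BX2OFF, 6298 in BX2Θ and 4881 in BX2*, against sense levels of 975, 1086 and 1207. Position 22565 held 63.8% of its antisense reads. Bin 29200 had antisense levels of 4561, 4313 and 6145 and sense levels of 309, 326 and 307 miRNA rpm. It was the most concentrated of the 5, with 87.2% of its antisense reads at position 29252.

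Bin 200900 had antisense levels of 3898, 4241 and 5345 miRNA rpm and sense levels of 92.7, 113 and 84.9, with 80.6% of the antisense reads at position 200983. Bin 203500 had antisense levels of 3172, 3542 and 4449 and sense levels of 412, 341 and 363, with 77.1% of the antisense reads at position 203527. Bin 24400 had antisense levels of 3027, 3702 and 3814 and sense levels of 11.0, 17.7 and 12.4, so that its sense strand was nearly unread in each library. Its reads were more spread out, with 47.0% at position 24409. In 4 of these 5 bins the antisense level was highest in BX2*, the exception being bin 22500. The level of all 42AB reads was also highest in BX2*, at 644944 miRNA rpm against 572878 in BX2OFF and 529668 in BX2Θ. Which library was highest in these 5 bins was not repeated at another scale.

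Strand preference was retained by most of the bins in each library. Of the 460 antisense bins, 431 had at most 25% sense reads in BX2OFF, 421 in BX2Θ and 423 in BX2*, with medians of 12.2%, 12.4% and 11.4%. In 373 bins (81.1%) this held in all 3 libraries, in 69 in 2 and in 18 in 1. The difference between the highest and the lowest library was 5.02 percentage points in the median bin (quartiles 2.49 and 8.89), and at most 10 points in 367 bins. Because all 3 libraries had chosen the bins, the choice was repeated from 2 libraries and the strand share read in the one left out. There, 407 of 460 bins (88.5%) were at or under 25% in BX2OFF, 412 of 471 (87.5%) in BX2Θ and 396 of the 459 with reads (86.3%) in BX2*. More than 50% of the reads were sense in 1 of these bins in BX2OFF, 3 in BX2Θ and 9 in BX2*.

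**Figure D2:**
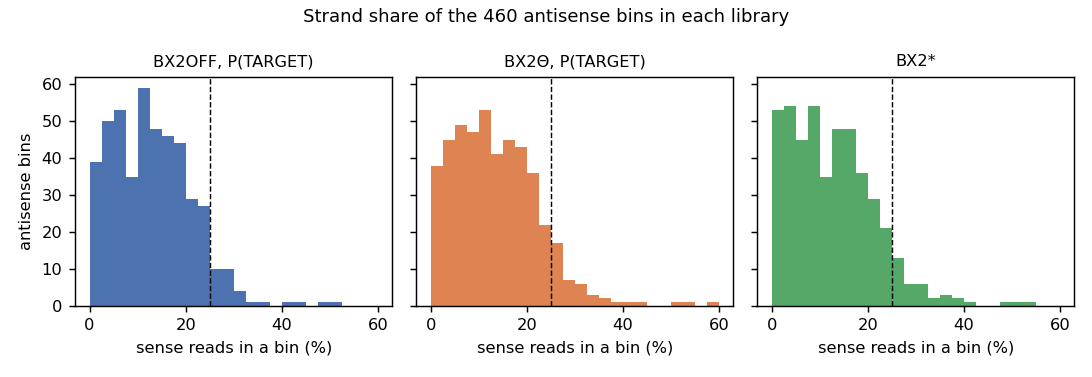
Number of antisense bins by their percentage of sense reads in each library, with the selection threshold of 25% as a dashed line. In BX2OFF, BX2Θ and BX2*, 431, 421 and 423 of the 460 bins lie at or under 25%, and few pass 50%.

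In 5 of the 460 antisense bins the sense strand took more than 50% of the reads in 1 library; these bins were picked for that pattern after their values were seen. Bin 67200 had 25.96% sense reads in BX2OFF, 54.1% in BX2Θ and 9.96% in BX2*, at antisense levels of 1311, 171 and 1052 miRNA rpm and sense levels of 460, 202 and 116. Both strands were thus lower in BX2Θ than in BX2OFF, the antisense strand by more. Bin 67400, close to it, had sense shares of 32.2%, 51.7% and 0.728%, with antisense levels of 494, 233 and 1829 miRNA rpm and sense levels of 235, 249 and 13.4. The antisense strand was highest and the sense strand lowest in BX2* there. Bin 191600 had shares of 48.8%, 57.6% and 4.48% and also held its most antisense reads in BX2*. Bins 145800 (18.0%, 8.60% and 50.6%) and 212300 (15.9%, 23.6% and 54.5%) passed 50% only in BX2*, on 162 and 112 reads there. Their strands were nearly even in that library. Bin 21700, just inside the threshold, had shares of 40.02%, 15.0% and 29.4%, and its antisense position 21705 held 441 reads in BX2OFF, 5903 in BX2Θ and 643 in BX2*. The bin was under the threshold in BX2Θ alone, the library in which this position was highest.

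Levels of the antisense bins were next compared between the libraries. The 3 pairs share libraries and are given side by side. In ovaries, fewer cells that make piRNAs and less RNA per cell cannot be told apart. Summed over the 460 bins the level was 186279 miRNA rpm in BX2OFF, 171965 in BX2Θ and 219189 in BX2*. Over single bins, the Spearman correlation between libraries was 0.977 for BX2Θ with BX2OFF, 0.933 for BX2* with BX2OFF and 0.935 for BX2* with BX2Θ, as a description over bins that share library and cluster.

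BX2Θ and BX2OFF, the pair that both carried P(TARGET), were the most alike. The median ratio of BX2Θ to BX2OFF was 0.858, against 0.876 over all 1643 bins. 1 antisense bin was at least 2-fold higher in BX2Θ, where the share over all bins was 0.365%, and 20 (4.35%) were at least 2-fold lower, against 4.99% of all bins. The median ratio of BX2* to BX2OFF was 1.05 (all bins 1.03). It became 1.17 with genome-matched reads as the scale and 0.933 when the libraries were brought to equal 42AB totals. In BX2*, 31 antisense bins (6.74%) were at least 2-fold higher than in BX2OFF, against 5.36% of all bins, and 50 (10.9%) at least 2-fold lower, against 7.49%. The split of 31 higher to 50 lower became 43 to 39 with genome-matched reads as the scale and 18 to 65 with equal 42AB totals, so that the majority direction of this pair depended on the scale.

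Between BX2* and BX2Θ the median ratio was 1.17 (all bins 1.14), or 1.31 with genome-matched reads and 0.961 with equal 42AB totals. Here 59 antisense bins (12.8%) were at least 2-fold higher in BX2*, against 11.0% of all bins, and 18 (3.91%) at least 2-fold lower, against 2.62%. This split of 59 to 18 became 87 to 12 with genome-matched reads and 31 to 40 with equal 42AB totals. Past 2-fold in at least 1 of the 3 pairs were 124 antisense bins (27.0%), against 21.7% of all bins, and 336 stayed within 2-fold in every pair. The difference from the share over all bins was widest for bins lower in BX2* than in BX2OFF among single pairs and directions (10.9% against 7.49%), and was not tested. Without the most abundant position of each bin, 78 of 347 chosen bins were past 2-fold. The share over all bins was not computed in that setting, so the difference from it is not known there.

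The bins that were lower in BX2* than in BX2OFF were grouped at 1 end of the cluster. From 210 kb to the end, a boundary that was set after the values of the 10 kb stretches had been seen, there were 93 antisense bins. Their summed level was 17508 miRNA rpm in BX2OFF, 13210 in BX2Θ and 10587 in BX2*, an order that was also found in the median ratios of 0.733 for BX2Θ and 0.510 for BX2*, each to BX2OFF. Of the 93, 44 were at least 2-fold lower in BX2* than in BX2OFF, out of 50 in the whole set, and 88 had a ratio below 1. The count of 44 was 33 with genome-matched reads and 57 with equal 42AB totals. In the other 367 antisense bins the median ratio of BX2* to BX2OFF was 1.15, with 30 bins at least 2-fold higher and 6 lower. In the sense bins from 0 to 210 kb it was 1.12, with 27 of 405 higher and 8 lower. In the bins of both strands it was 1.06, with 28 of 578 higher and 8 lower. The lower level beyond 210 kb was not particular to the antisense bins: the median ratio of BX2* to BX2OFF there was 0.587 in bins of both strands, of which 52 of 163 were at least 2-fold lower, and 0.727 in sense bins, with 5 of 37. The sense share of the 93 antisense bins was 11.5%, 13.3% and 12.2% in the 3 libraries. In the stretch of 40 to 50 kb, which holds the longest run, 10 of 35 antisense bins (28.6%) were at least 2-fold higher in BX2* than in BX2OFF and 3 (8.57%) at least 2-fold lower, against 19.8% and 3.70% of all 81 bins at the level minimum there.

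**Figure D3:**
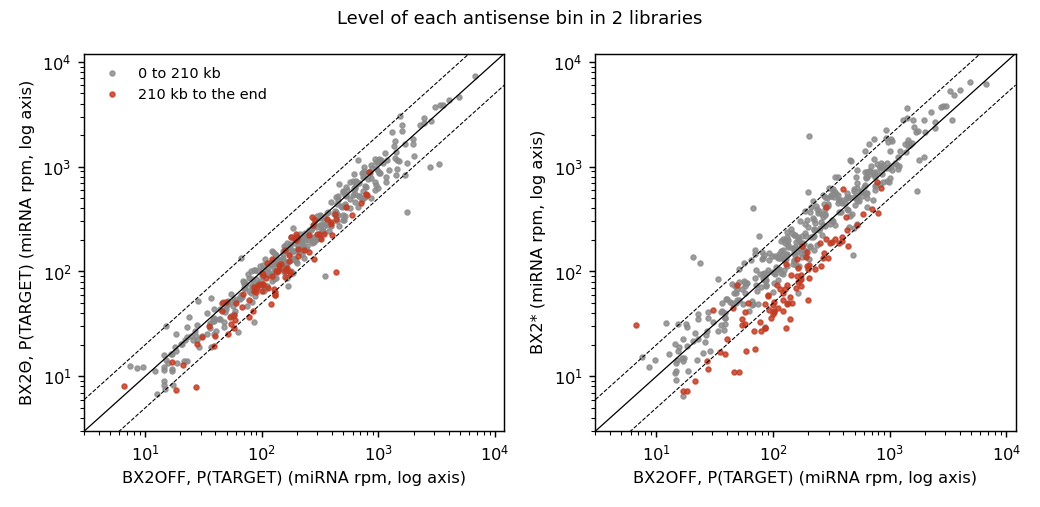
Level of each antisense bin in BX2Θ (left) and BX2* (right) against BX2OFF, in miRNA rpm on log axes. The solid line marks equal levels and the dashed lines a fold of 2. Bins from 210 kb to the end (red) lie mostly below the line in BX2*, where 44 of 93 are at least 2-fold lower, and bin 29300 without a read in BX2* is not drawn on the right.

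The largest ratios between libraries were those of bins 29300, 189700 and 32300. Bin 29300, next to the high bin 29200, held 102 reads in BX2OFF, 205 in BX2Θ and 0 in BX2*. Its level was 28.2 miRNA rpm in BX2OFF and 51.9 in BX2Θ, and the limit of 3 reads that a count of 0 allows is 0.774 miRNA rpm in BX2*. The 95% interval of the ratio of BX2* to BX2OFF reached up to 0.0344 and that of BX2* to BX2Θ up to 0.0185. Bin 189700 held 733, 688 and 7532 reads, at levels of 202, 174 and 1943 miRNA rpm. The ratio of BX2* to BX2OFF was 9.61 (8.90–10.4) and that to BX2Θ 11.2 (10.3–12.1). Position 189785 alone held 213, 100 and 6551 of these reads, and the rest of the bin 520, 588 and 981, so that 1 position carried most of the difference. Bin 32300 held 74, 80 and 535 reads. Its ratio of BX2* to BX2OFF was 6.76 (5.29–8.74) and that to BX2Θ 6.82 (5.38–8.74), and here the reads outside the most abundant position also differed, with 68, 62 and 318.

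Overlaps between strands were then counted, since the rule had not used them. For every antisense read of an antisense bin, sense reads anywhere in 42AB whose 5′ end overlapped it by 1 to 26 nt were taken as partners, and each pair of positions was given the read number of its rarer member. An overlap of 10 nt was the most frequent in each library, with 32194 pairs in BX2OFF, 31610 in BX2Θ and 32706 in BX2*. The mean of the other overlaps was 15024, 15268 and 14812, so that the 10 nt overlap was 2.14, 2.07 and 2.21 times as frequent. Its z-score over the 26 overlaps was 4.18, 4.13 and 4.27, and the next most frequent overlap was that of 23 nt. The z-score was 4.46, 4.48 and 4.49 in the sense bins and 4.58, 4.64 and 4.63 in the bins of both strands. A 10 nt excess was therefore present in the reads of mainly antisense bins in all 3 libraries, including BX2OFF. In every class the pairs were anchored on antisense reads, which are the abundant strand here and the rarer one in the sense bins. The z-scores of the classes are therefore not like for like. With both 5′ ends in antisense bins, the z-score of the antisense bins was 4.47, 4.45 and 4.57.

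**Figure D4:**
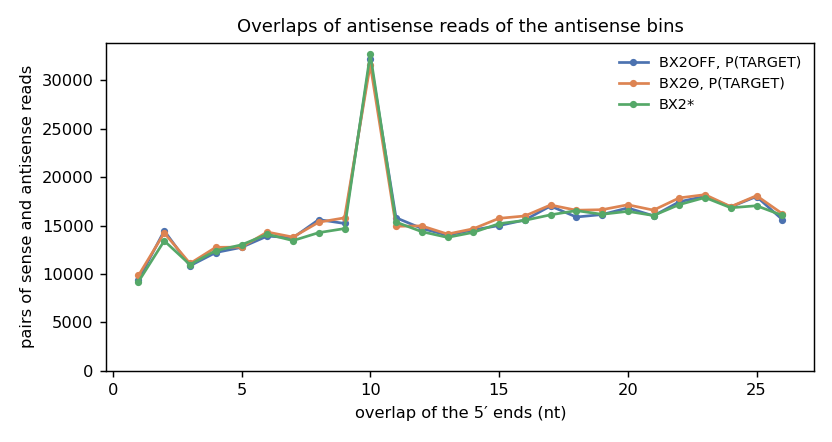
Pairs of sense and antisense reads by the overlap of their 5′ ends in nt, for antisense reads of the 460 antisense bins in the 3 libraries. The 10 nt overlap has 32194, 31610 and 32706 pairs in BX2OFF, BX2Θ and BX2*, above means of 15024, 15268 and 14812 for the others.

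The 10 nt pairs took 5.37%, 5.22% and 4.23% of the antisense reads of the antisense bins. In a separate count, the sense reads of these bins were paired with antisense reads anywhere in 42AB. Of these few sense reads, 36.9%, 37.4% and 37.3% were paired at 10 nt, against a mean of 18.3%, 19.2% and 18.2% at the other overlaps. In the sense bins, the corresponding share of the rarer antisense reads was 39.9%, 42.4% and 43.9%. Since each pair was counted by its rarer member and the bins were chosen for their strand share, no comparison between the abundant and the rarer strand is drawn from these shares.

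The 10 nt pairs were not spread evenly over the bins. Of 96510 pairs in the 3 libraries together, 23.2% came from 10 bins, the median bin had 61 and 13 bins had none. In 412 antisense bins there were at least 26 pairs in each library over all overlaps. Among these, 10 nt was the most frequent overlap in all 3 libraries in 57 (13.8%), against 15.8% of all 1496 bins tested in this way, and in no library in 265. In the sense bins the count was 58 of 374 and in those of both strands 122 of 710. For the most abundant antisense position of a bin, the strongest sense partner within 29 nt overlapped it by 10 nt in 121 of 449 bins (26.9%), and in 24.6% of all bins. When each pair of positions was counted once, whatever its reads, the mean z-score over the libraries was 0.604 in place of 4.19, and it was 2.76 without the most abundant position of each bin. The 10 nt overlap thus stood out among overlaps weighted by reads, and much less among positions.

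The 3 bins with the most 10 nt pairs each rested on 1 pair of positions. Bin 175000 had 1255, 1397 and 2017 pairs in BX2OFF, BX2Θ and BX2*. Of these 10 nt pairs, 85.2% joined antisense position 175005 (3583, 2486 and 4825 reads) to sense position 174996 (1043, 1188 and 1749 reads). This sense position lies in the neighbouring bin 174900. Bin 203500, also among the highest bins, had 1303, 1167 and 1268 pairs, of which 71.3% joined antisense position 203527 (6565, 9639 and 16868 reads) to sense position 203518 (702, 734 and 1229 reads). Since each pair was counted by its rarer member, the sense reads set the number of pairs at these positions, whatever the antisense reads. Bin 24500 had 786, 791 and 1084 pairs, of which 78.3% joined antisense position 24550 (2055, 2945 and 3266 reads) to sense position 24541 (554, 640 and 889 reads). In all 3 bins the same pair of positions was found in every library. Bin 24400, the neighbour of bin 24500, held only 40, 70 and 48 sense reads in BX2OFF, BX2Θ and BX2*. Each pair was counted by its rarer member, so few pairs were possible there, and the bin is not compared with those above. Bin 24400 had 25, 31 and 25 pairs at 10 nt against a mean of 25.3, 39.0 and 28.1 at the other overlaps.

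Distances between 5′ ends on the antisense strand were counted in the same way within antisense bins. The number of pairs was highest at 1 nt, with 105620, 106690 and 134148 pairs, and fell with distance, in part because a partner had to lie in an antisense bin too. A second rise was found at about the length of a piRNA. The mean number of pairs at 24 to 29 nt was 1.24 times that at 18 to 22 nt in BX2OFF, 1.30 times in BX2Θ and 1.33 times in BX2*. Between 20 and 35 nt the number peaked at 25 nt in BX2OFF (38595 pairs) and BX2Θ (42207) and at 27 nt in BX2* (43510). A further low rise was seen at 50 to 57 nt, at 1.07 times the number at 38 to 42 nt in each library. On the sense strand of the sense bins the first ratio was 1.20, 1.09 and 1.28, and the second 0.983, 0.962 and 1.01. Without the most abundant position of each bin the first ratio in the antisense bins was 1.14, 1.16 and 1.22, so that the rise remained but was lower.

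**Figure D5:**
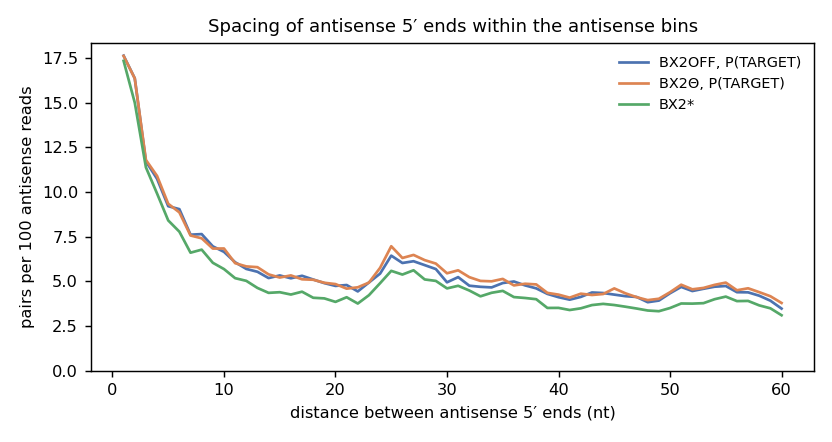
Pairs of antisense 5′ ends per 100 antisense reads by their distance in nt, within the 460 antisense bins in the 3 libraries. The curves fall from 1 nt and rise again at about 25 to 27 nt and, less clearly, near 55 nt.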

How the data were processed

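The authors trimmed the reads, aligned them to the D. melanogaster genome (FlyBase release 5.49; Bowtie2 2.0.3 in the submitters' processing notes) and tabulated 18–29 nt reads. The deposited tables of 42AB give a signed score per library, strand and either read length or 5′ position. Each score is the number of reads times the factor that scales the library to 1000000 miRNA reads (0.276, 0.253 and 0.258 for BX2OFF, BX2Θ and BX2*), negative for antisense. Dividing by it gave whole reads, within 0.01 reads, for 100% of the values. The tables carry a mark for uniquely matched reads that they do not explain. Tables of P(lacW) were not used here.

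Reads were summed in bins of 100 bp and classed as stated with the results. Shares have Wilson intervals and ratios exact binomial ones, and a count of 0 was set to 3 reads. The z-score of the 10 nt overlap uses the mean and SD over overlaps of 1 to 26 nt. No test was run, since each genotype had 1 library. The members, classes and lists were chosen with earlier results of these data known. Bins were named by a rule: the 5 longest runs, the 5 highest bins, the 3 with most 10 nt pairs, the 3 with the largest ratio between libraries among those with at least 100 reads in the highest, and the 2 on each side of each threshold. Bins named for other reasons are marked as such. Alternatives were other bin widths and starts, thresholds, folds, scales (genome-matched totals from the study's library annotation, or equal 42AB totals) and pair counts, bins without their most abundant position, and leaving out each library. The last stretch of the cluster and the spacing were recomputed under alternatives added after the data were seen. Python 3.11.15, numpy 2.4.6, pandas 2.3.3, scipy 1.17.1 and matplotlib 3.10.9 were used, and the binning and pair counting were tested on simulated data.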

Additional observations from a re-analysis of the deposited data

How the results depend on the processing

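Of 139 values under alternatives, 84 stayed within the limits set for a change (1.5 times for a count, 1 SD between libraries for a z-score or spacing ratio) and 55 moved. A reversal was defined only for the z-score (17 values) and the spacing ratio (4 values), and 0 of these reversed. Counts could not reverse by this rule. The majority direction of BX2* against each other library did turn with the scale, as given above. The 460 bins became 942 at a width of 50 bp, 224 at 200 bp, 306 at a level of at least 100 miRNA rpm and 181 at a sense share of at most 10%. The 266 runs became 562, 135 and 137 at 50 bp, 200 bp and the 10% share. The 373 bins at or under the share in every library became 775, 176 and 132. The 124 bins past 2-fold became 270 at 50 bp, 55 at 200 bp, 71 at the higher level, 51 at the 10% share, 78 without the most abundant positions, 253 at a fold of 1.5 and 15 at a fold of 4. When 1 library was left out of the choice, these counts ranged from 460 to 471, 265 to 279, 371 to 375 and 117 to 133. The share of all bins past 2-fold was not computed under these alternatives. The mean z-score of 4.19 became 3.69 at 50 bp, 4.27 at 200 bp, 4.01 with shifted bins, 4.50 with both ends in antisense bins, 0.604 with each pair of positions counted once, 4.85 with the product of the reads, 4.35 over overlaps of 1 to 29 nt, 4.29 at the higher level, 3.76 at the 10% share, 4.41 at a share of 33% and 2.76 without the most abundant positions (4.18 to 4.30 with 1 library left out). Another scale moved the median ratio of BX2* to BX2OFF over all bins by 0.16 (genome-matched reads) or -0.17 (equal 42AB totals) on the log2 scale, that of BX2* to BX2Θ by 0.16 or -0.28, and that of BX2Θ to BX2OFF by -0.01 or 0.11.

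No paired analysis was possible because each genotype had 1 library. The median antisense bin held 634, 583.5 and 668 reads in BX2OFF, BX2Θ and BX2* and the lowest 24, 27 and 0, so that ratios of bins near the level minimum are imprecise. Other limits are the missing replicates, the earlier origin and missing reporter of the BX2* library, the position tables without read lengths, and the choice of the bins by the values described.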
